A study of Brassica juncea with 9 samples.

Results

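The brightest leaf transcripts of Brassica juncea (Indian mustard) whose levels stayed close together under control, salt and alkaline salt conditions are described here, as 200 of the 43603 array probes. A probe qualified if its spot was well above background on all 9 arrays and if the highest and lowest of the 3 group means lay less than 0.5 apart in the authors' deposited log2 values, which is less than 1.41-fold. Of the 14476 probes above background on all 9 arrays, 7552 (52.2%) met that limit, and the 200 with the highest mean were taken. The members were thus chosen by the deposited log2 values of these same arrays, through their mean and the range of their group means. Each of them was read by 1 spot per array. Their group means are given as a description, with no test read from them.

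Plants of genotype NDR8501 grew in aerated nutrient solution in a glasshouse. Control plants received 0 mM NaCl, salt plants 50 mM NaCl, and alkaline salt plants 50 mM NaCl together with 2.5 mM bicarbonate (HCO3-), the ion that buffers saline water to a high pH. By the labels, treatment lasted 4 weeks, leaves were sampled at an age of 5 weeks, and each of the 3 arrays per group carried leaf RNA of a single plant, labelled with the dye Cy3. The design asks how leaf transcripts respond to salt alone and to salt with bicarbonate, relative to unstressed plants and to each other. The arrays were spread over 3 slides, each with 1 array of every group, and the slide number equals the replicate number. The scan dates in the headers are earlier than the growing season stated in the labels, and the sources used here give no reason, so every group rests on the labels as deposited.

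Leaf messenger RNA is known to be dominated by a small number of photosynthesis transcripts, among them those of the RuBisCO small subunit, which belongs to the carbon-fixing enzyme, and of the chlorophyll a/b-binding proteins, which harvest light. Ribosomal proteins, translation factors and metallothioneins, small metal-binding proteins, are further known sources of abundant plant transcripts. Brassica juncea is an allotetraploid, so that near-identical gene copies from both of its ancestral genomes can bind the same oligonucleotide. The files used here pair no probe with a gene name or a sequence. The members are therefore named by probe, no role can be given to any of them, and the tissue label could not be checked against leaf markers. In leaf tissue as a whole, fewer cells of a type and less RNA per cell cannot be told apart.

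The mean deposited log2 value of a member over the 9 arrays ran from 15.79 to 18.50 with a median of 16.86, against a median of 11.11 over all 14476 probes above background everywhere. Brightness depends on the oligonucleotide as well as on the amount of transcript, so the order of the members is one of spot brightness and not of transcript number. The range of a member's 3 group means had a median of 0.23 and ran from 0.02 to 0.49. No member spot was saturated: the brightest member reached 27.4% (salt replicate 2) to 60.6% (salt replicate 3) of the scanner's upper limit. The spots of the members were also spread over the array, with 49, 53, 48 and 50 of them in 4 equal blocks of its rows.

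**Figure D1:**
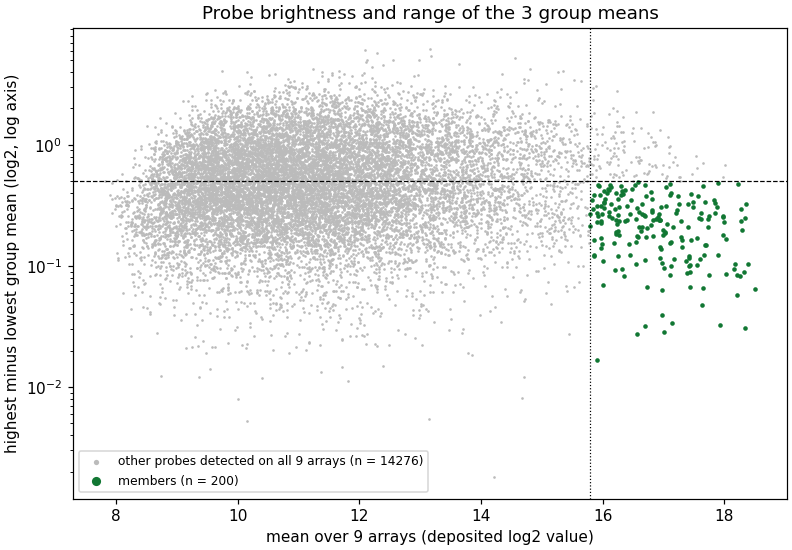
Each point is a probe above background on all 9 arrays, with its mean deposited log2 value on the horizontal axis and the range of its 3 group means (log2, on a log axis) on the vertical axis. The 200 members (green) lie below the dashed line at 0.5 and to the right of the dotted line at the mean of the dimmest member, 15.79, and the grey points above the dashed line on that side are the 124 equally bright probes that the range left out.

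The brightest member was A_46_P143714. Its deposited log2 values were 18.55, 18.51 and 18.55 in control replicates 1 to 3, 18.47, 18.47 and 18.55 in salt plants, and 18.51, 18.40 and 18.51 in alkaline salt plants. The 3 groups overlapped, and the lowest value belonged to alkaline salt replicate 2. Its group means were 18.54 ± 0.02 (SD, n = 3) in control plants, 18.50 ± 0.05 in salt plants and 18.47 ± 0.06 under alkaline salt. Before any scaling between arrays, its processed intensity was lowest in salt replicate 2, at 192001, and highest in salt replicate 3, at 473266, the arrays that were also the dimmest and the brightest over the median member, at 53061 and 157257.

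A_46_P184406, the next in brightness, carries the same transcript identifier as A_46_P143714. Its deposited log2 values were 18.44, 18.40 and 18.47 in control, 18.44, 18.27 and 18.40 in salt, and 18.28, 18.44 and 18.28 in alkaline salt plants. The values of the groups overlapped, with 2 alkaline salt plants and 1 salt plant at the lower end. The same identifier holds 2 more members, A_46_P186514 with a mean of 16.70 and A_46_P186664 with a mean of 16.03. The latter read 16.12, 16.12 and 16.06 in control, 16.13, 16.18 and 16.12 in salt, and 16.02, 15.80 and 15.71 in alkaline salt plants. Every alkaline salt value of A_46_P186664 lay below the control and salt values, whereas the 2 brightest probes of that identifier showed overlapping groups. A_46_P186514 read 16.69, 16.83 and 16.74 in control, 16.59, 16.83 and 16.96 in salt, and 16.65, 16.52 and 16.44 in alkaline salt plants. Its alkaline salt values lay below all of its controls and overlapped its salt values.

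A_46_P216085 read 18.51, 18.55 and 18.35 in control, 18.51, 18.55 and 18.35 in salt, and 18.47, 18.16 and 17.80 in alkaline salt plants. Alkaline salt replicate 3 was its lowest plant and the groups overlapped through alkaline salt replicate 1. A_46_P253129 read 18.38, 18.44 and 18.21 in control, 18.38, 18.33 and 18.38 in salt, and 18.27, 18.35 and 18.38 in alkaline salt plants, with group means only 0.03 apart. A_46_P353371 read 18.47, 18.33 and 18.33 in control, 18.55, 18.51 and 18.27 in salt, and 18.35, 18.23 and 18.01 in alkaline salt plants. Its groups overlapped, and as for A_46_P216085 the lowest plant was alkaline salt replicate 3. The 5 brightest members together held 1.13% (control replicate 3) to 2.03% (salt replicate 2) of all processed intensity on an array.

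At the dim end of the members were A_46_P297855, with a mean of 15.79, and A_46_P218619, also at 15.79. A_46_P218619 read 15.63, 15.70 and 15.72 in control, 15.99, 15.97 and 15.89 in salt, and 15.66, 15.81 and 15.70 in alkaline salt plants. All 3 of its salt plants stood above the other 6, with a range of group means of 0.27. The steady probes next below, A_46_P250229 and A_46_P311045, both had a mean of 15.77, so the lower end of the list falls inside a continuous run of values.

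The upper end of the range was as gradual. The member with the widest group means, A_46_P224674, had means of 16.81 ± 0.22 (SD, n = 3) in control plants, 16.32 ± 0.17 in salt plants and 16.63 ± 0.50 under alkaline salt, a range of 0.49. Its 3 salt plants, at 16.50, 16.29 and 16.16, lay below the 3 controls, at 16.90, 16.56 and 16.96, while alkaline salt replicate 1, at 16.07, was the lowest plant of all. A_46_P137184 had means of 17.66 ± 0.06 in control plants, 17.89 ± 0.17 in salt plants and 18.14 ± 0.13 under alkaline salt, a range of 0.49. Its 3 alkaline salt plants, at 17.99, 18.21 and 18.23, were above the 3 controls, at 17.72, 17.60 and 17.64, and overlapped the salt plants. The bright probes just past the limit, A_46_P133459 and A_46_P216959, both had a range of 0.51. The former was higher in alkaline salt plants, at 17.60 ± 0.17 against 17.09 ± 0.20 in control, and the latter lower, at 16.16 ± 0.27 against 16.66 ± 0.13.

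**Figure D2:**
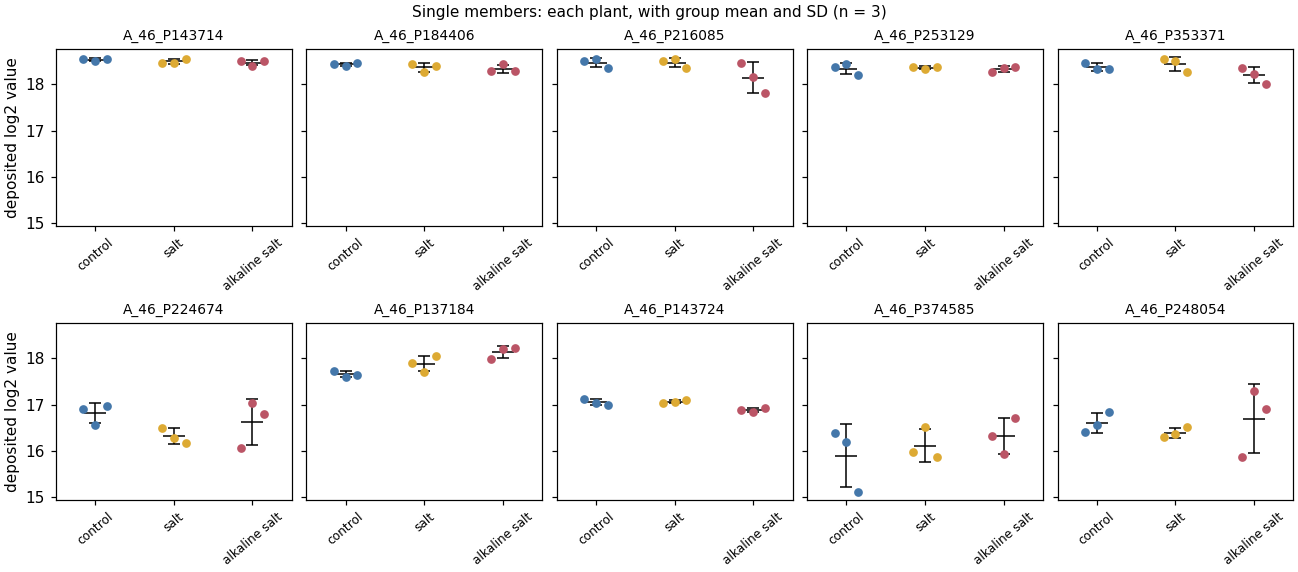
Deposited log2 values (vertical axis) of each plant for 10 members, in control, salt and alkaline salt plants (horizontal axis), with the group mean and SD (n = 3). The upper row shows the 5 brightest members, and the lower row those with the widest range of group means (A_46_P224674, A_46_P137184), with a small spread between plants (A_46_P143724) and with the largest spreads (A_46_P374585, from 15.11 to 16.70, and A_46_P248054, from 15.86 to 17.30).

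Of the 324 probes at least as bright as the dimmest member, the members are 61.7%, and the range of group means left out the other 124 (38.3%). On the deposited values, steady group means were more frequent at the very top than below it. Of the brightest 100 probes, 81.0% had a range under 0.5, against 53.1% at ranks 101 to 324, 47.0% at ranks 325 to 1000 and 54.6% at ranks 7001 to 14476. On intensities scaled to each array's 75th percentile (below, the scaled values) the shares were 78.0%, 50.4%, 45.3% and 55.3%. With normexp background correction they were 76.0%, 50.4%, 46.3% and 77.2%. On that scale the brightest probes were thus no steadier than the dimmest ranks. These shares describe the probes above background on all 9 arrays, and no test was made of them, since the rule used the same ranges.

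In the 124 bright probes left out, the alkaline salt mean was the highest or the lowest of the 3 in 119, and it was the lowest in 76. They were set apart by their wide range of group means, so these counts are a description and are not set against dimmer probes. The brightest of them, A_46_P138684, read 18.29 ± 0.02 (SD, n = 3) in control plants, 18.15 ± 0.26 in salt plants and 17.61 ± 0.21 under alkaline salt. A_46_P138234 went the other way, at 17.75 ± 0.18, 17.91 ± 0.27 and 18.30 ± 0.28, and A_46_P223189 was lower again in alkaline salt plants, at 17.90 ± 0.16, 17.87 ± 0.02 and 17.19 ± 0.21. Among the members themselves the highest mean fell in control for 55, in salt for 79 and in alkaline salt for 66, and the lowest in control for 63, in salt for 43 and in alkaline salt for 94. On the scaled values the highest mean fell in salt for 106 members and the lowest in alkaline salt for 101, so these counts depend on the scaling.

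The 200 members together held between 20.5% and 27.6% of the signal of an array. Their share of all processed intensity over gene probes was 25.6%, 23.0% and 20.5% in control replicates 1 to 3, 25.04%, 27.6% and 21.5% in salt plants, and 25.3%, 21.2% and 24.0% in alkaline salt plants. The groups overlapped throughout, with means of 23.0% ± 2.52 (SD, n = 3) in control plants, 24.7% ± 3.07 under salt and 23.5% ± 2.1 under alkaline salt, which differed by less than the spread between plants. The rule chose the members for close group means on these same arrays, so similar shares follow in part from it and are a description. The 124 equally bright probes left out held 9.21% to 12.0%. The members' share was highest in salt replicate 2, the array with the lowest 75th percentile of intensity (417 against 880 to 1751 on the others), and lowest in control replicate 3. The part that array brightness has in these shares was not tested.

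**Figure D3:**
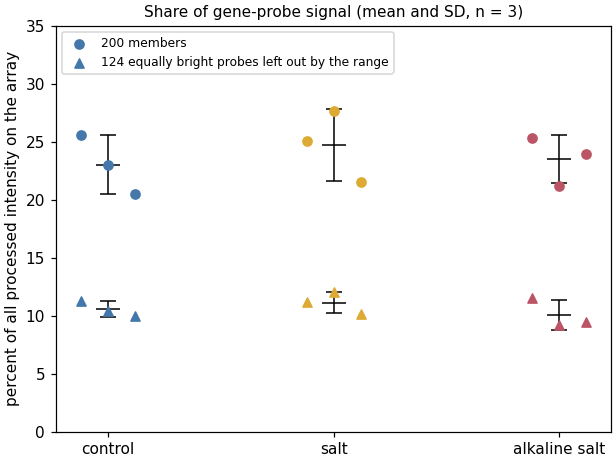
Percent of all processed intensity over gene probes (vertical axis) held by the 200 members (circles) and by the 124 equally bright probes left out (triangles), for each plant of the 3 groups (horizontal axis), with group means and SD (n = 3). The members lie between 20.5% and 27.6% and the other bright probes between 9.21% and 12.0%, and the 3 groups overlap in both. For the members, chosen for close group means, this follows in part from the rule.

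The scaled values gave the treatment contrasts, fitted with limma over 17798 probes, those that 1 group or more measured above background in each of its 3 plants. All 200 members were among them. At a Benjamini-Hochberg adjusted p under 0.05, 0 members were called in alkaline salt against control, where 17.9% of the tested probes were called. In alkaline salt against salt 0 members were called beside 15.2% of the tested probes, and in salt against control 0 beside 0.0337%. Nothing is read from these counts, since the rule chose the members by the same group means. At an unadjusted p under 0.05 the members numbered 3, 8 and 0, beside 32%, 30.7% and 5.89% of the tested probes. By non-overlapping groups on the scaled values they numbered 12, 9 and 6, beside 37%, 39.6% and 10.2%. On the deposited values the groups did not overlap in 42, 49 and 16 members, beside 38%, 41.9% and 10.8% of the tested probes, so this count depends on the scale.

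The member with the smallest p in alkaline salt against control was A_46_P137184, at a log2 difference of 0.59 with a 95% interval from 0.04 to 1.13 (limma adjusted p = 0.132). Next came A_46_P283398, whose deposited values were 16.24, 16.04 and 16.13 in control, 16.28, 16.16 and 16.06 in salt, and 15.71, 15.74 and 15.78 in alkaline salt plants. All 3 alkaline salt plants lay below the other 6, within 0.07 of each other. Its scaled log2 difference from control was -0.48, with an interval from -0.95 to -0.01 (limma adjusted p = 0.146). A_46_P187324, a member with the same identifier, did not show that separation. Its alkaline salt values of 15.99, 15.54 and 15.84 overlapped both other groups. In alkaline salt against salt the smallest p belonged to A_46_P143549, at -0.54 with an interval from -0.98 to -0.10 (limma adjusted p = 0.0965). A_46_P161199 was called in alkaline salt against control in the fit without alkaline salt replicate 1 (log2 difference -0.73, limma adjusted p = 0.0403), and A_46_P226539 in alkaline salt against salt with normexp background correction (-0.55, limma adjusted p = 0.0341). Both were picked out after their values were seen.

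How closely 3 plants per group bound a member's change is given by the 95% intervals. The interval of a contrast reached 0.56 to either side of the estimate for the median member (0.36 to 0.97 over the members) and 0.61 for the median tested probe. For 159 members (79.5%) the intervals of all 3 contrasts stayed within 2-fold in either direction, against 38% of the tested probes. For the other 41 members the interval of at least 1 contrast reached past 2-fold. In the deposited values 195 members (97.5%) had all 3 intervals within 2-fold, against 37.4% of the tested probes. The estimates entered the choice of members, so these shares describe the members and test nothing.

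The spread between plants of a group differed with the scale. On the deposited values the pooled within-group SD of a member had a median of 0.16, against 0.24 over the 124 equally bright probes left out and 0.29 over all probes above background on the 9 arrays. A limit on the range of group means favours probes with a small spread, so part of this difference follows from the rule. On the scaled values the medians were 0.30, 0.36 and 0.30. The smallest SD on the deposited values belonged to A_46_P143714 (0.05), which had one of 0.41 on the scaled values, where its group means were 8.35 ± 0.42 (SD, n = 3), 8.49 ± 0.39 and 8.40 ± 0.43. A_46_P143724 followed, with 17.12, 17.03 and 16.99 in control, 17.04, 17.05 and 17.10 in salt, and 16.88, 16.84 and 16.92 in alkaline salt plants. Its 3 alkaline salt plants stood below the other 6, with a gap close to the spread within a group.

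On the scaled values the members rose and fell together from array to array. The median member stood at 7.06, 6.64 and 6.50 in control replicates 1 to 3, at 6.88, 6.99 and 6.49 in salt plants and at 7.003, 6.49 and 6.58 in alkaline salt plants. Control replicate 1 and alkaline salt replicate 1 were the highest, salt replicate 3 and alkaline salt replicate 2 the lowest, and the groups overlapped, with means of 6.73 ± 0.29 (SD, n = 3), 6.79 ± 0.26 and 6.69 ± 0.27. In linear terms the median member was 89.8 times (salt replicate 3) to 133 times (control replicate 1) as bright as the 75th percentile of its array. Of the variation between plants within groups, the first principal component held 74.5% for the members and 29.6% for all probes above background on the 9 arrays. A shift shared equally by all probes of the set made up 59.8% of the within-group variation for the members and 1.77% for all of those probes. Neither share was worked out for the equally bright probes left out, so neither is shown to be particular to the members. Among these, A_46_P138684 fell over control replicates 1 to 3 (8.43, 8.10 and 7.74), as did A_46_P223189 (8.13, 7.81 and 7.31). In A_46_P138234 the highest plant was alkaline salt replicate 3, at 8.46. The intensity share of probes left out averaged 11.3%, 10.6% and 9.89% on slides 1 to 3, beside 25.3%, 24.0% and 22.0% for members.

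In the deposited values the shared shift of the members was nearly absent. The median member stood at 16.89, 16.82 and 16.85 in control, at 16.90, 16.91 and 16.81 in salt and at 16.84, 16.86 and 16.83 in alkaline salt plants. The arrays lay within 0.10 of each other, against 0.57 on the scaled values, and the shared shift made up 0.875% of the within-group variation of the members. The deposited columns match quantile-normalised intensities, a scaling that gives the same rank the same value on every array: the probe ranked highest had the value 18.55 on all 9. The small spread of the members between plants was seen on that scale and not on the scaled values. Their group means were close on both, with 190 members (95%) under 0.5 on the scaled values, beside 52.5% of all probes above background on the 9 arrays. With normexp background correction 185 members (92.5%) were under 0.5, beside 66.3% of those probes. These counts test nothing, since the rule chose the members for close group means on the same arrays.

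**Figure D4:**
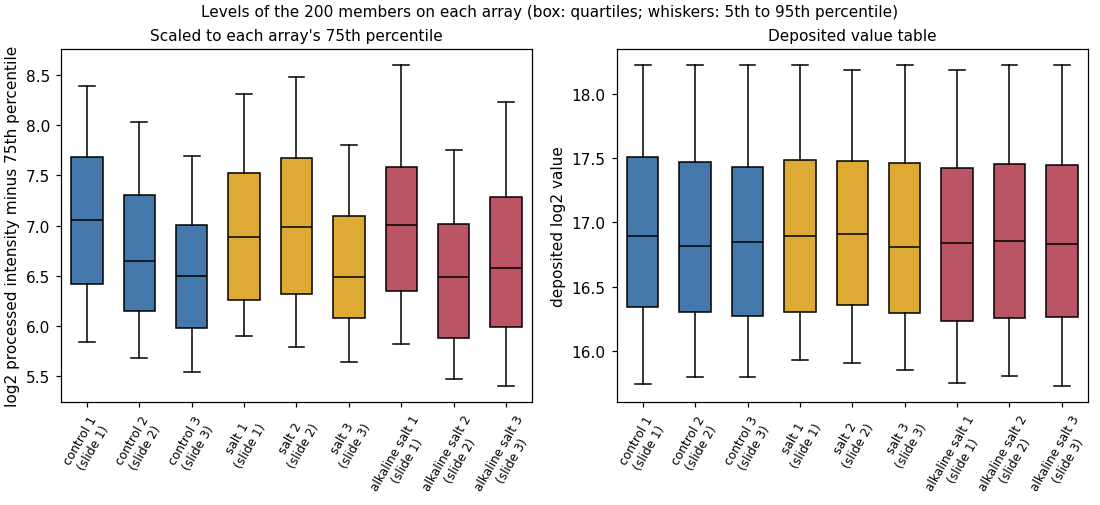
Boxes show the quartiles and whiskers the 5th to 95th percentile of the 200 members on each array (horizontal axis, with its slide), as log2 processed intensity minus the array's 75th percentile (left) and as deposited log2 values (right). The medians run from 6.49 to 7.06 on the left and from 16.81 to 16.91 on the right, and on the left the slide 1 array is the highest of the control and alkaline salt groups.

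The slide is balanced over the groups, so an additive difference between slides enters each group mean equally and cancels in the range of group means. It does enter the mean over the 9 arrays by which the members were ranked. On the scaled values 192 members were lower on slide 2 than on slide 1, with a median difference of -0.26, and 196 were lower on slide 3, with a median of -0.43. Over all 17798 tested probes 10859 were lower on slide 2 and 10923 on slide 3, and both medians were -0.09. The 3 brightest probes left out by the range were lower too. Their differences on slides 2 and 3 were -0.28 and -0.82 (A_46_P138684), -0.16 and -0.38 (A_46_P138234) and -0.29 and -0.70 (A_46_P223189). The members share their arrays, so the counts of members are not counts of separate observations. In limma's F-test of the slide 0 members were called at an adjusted p under 0.05, as were 0% of the tested probes, and the smallest adjusted p of a member was 0.821. At an unadjusted p under 0.05 the members numbered 17 (8.50%), beside 4.88% of the tested probes. On the deposited values the number was 1 (0.5%) beside 4.19%, with median differences of 0.00 and -0.02.

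The members with the smallest slide p were A_46_P308855 and A_46_P248474. A_46_P248474 had deposited values of 16.81, 16.76 and 16.26 in control, 16.70, 16.65 and 16.21 in salt, and 16.34, 16.33 and 16.11 in alkaline salt plants, with the slide 3 plant the lowest of each group (limma unadjusted p = 0.0128, adjusted p = 0.821). A_46_P308855 also had its lowest plant on slide 3 in each group, at 16.79 (control), 16.69 (salt) and 16.52 (alkaline salt), with a limma unadjusted p of 0.00715 and an adjusted p of 0.821. Since the slide and the replicate number coincide, a difference between slides and one between sets of plants cannot be told apart.

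Within slides, on the scaled values, the treatment differences of the median member did not keep 1 direction. Alkaline salt minus salt was 0.10 on slide 1, -0.52 on slide 2 and 0.05 on slide 3, with a fitted median over members of -0.10 and 0.00 over all tested probes. With single arrays left out the fitted median over members ran from -0.27 (alkaline salt replicate 1) to 0.00 (alkaline salt replicate 2). It was -0.24 without salt replicate 3 and -0.02 without salt replicate 2. Salt minus control was -0.12, 0.26 and 0.08 on the 3 slides, with a fitted median of 0.09, and -0.01 without salt replicate 2. With single arrays left out that median ran from -0.05 (control replicate 3) to 0.24 (control replicate 1). Alkaline salt minus control was -0.02, -0.27 and 0.06, with a fitted median of -0.02. With single arrays left out that median ran from -0.17 (control replicate 3) to 0.12 (control replicate 1). On the deposited values both alkaline salt differences kept 1 sign and were small: alkaline salt minus control was -0.08, -0.03 and -0.07 on slides 1 to 3 and alkaline salt minus salt -0.08, -0.05 and -0.02. Salt minus control was 0.00, 0.06 and 0.03. The 2 scales thus differ in the direction they give on single slides.

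In the deposited values 17 members lay more than 0.5 from their 9-array median in control replicate 3, 15 of them below it. In the other plants the number ran from 0 (salt replicate 1) to 9 (salt replicate 3). The rule limits such departures, since it kept probes with close group means in these same values, so the counts are a description and are not set against other probes. The highest and the lowest plant lay more than 1 log2 unit apart in 7 members (3.50%) on the deposited values. On the scaled values they did so in 61 (30.5%), with normexp background correction in 97 (48.5%) and with median scaling in 188 (94%), so the number depends on the scale.

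Of the 7 on the deposited values, alkaline salt replicate 3 was the highest plant in 6 and control replicate 3 the lowest in 5. The largest spread belonged to A_46_P374585, with 16.38, 16.18 and 15.11 in control, 15.96, 16.52 and 15.86 in salt, and 16.31, 15.93 and 16.70 in alkaline salt plants. A_46_P261133 had 16.36, 16.14 and 15.52 in control, 15.92, 16.41 and 15.86 in salt, and 16.30, 16.01 and 16.67 in alkaline salt plants. In both probes control replicate 3 was lowest and alkaline salt replicate 3 highest, and the groups overlapped. A_46_P248054 differed from them: alkaline salt replicate 1 was its lowest plant, at 15.86, and alkaline salt replicate 2 its highest, at 17.30, with the 6 control and salt plants between 16.29 and 16.83.

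The members were taken for a high mean over these 9 arrays, so high ranks on single arrays follow in part from the rule. All 200 members were among the 1000 brightest probes on every array, and 151 were among the brightest 324 on every array. The lowest rank of any member was 618, reached by A_46_P374585 in control replicate 3. The brightest spot of an array was A_46_P143714 in control replicates 1 and 3 and salt replicate 3, A_46_P216085 in control replicate 2 and salt replicate 2, A_46_P353371 in salt replicate 1, A_46_P068996 in alkaline salt replicate 2 and A_46_P284923 in alkaline salt replicate 3. In alkaline salt replicate 1 it was A_46_P138549, which is no member.

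The 200 members carry 176 transcript identifiers. Of these, 159 have 1 member and 17 have several, 41 members in all. Identifiers starting with the letters TA made up 49.5% of the members, against 23.9% of all probes above background on the 9 arrays and 15.4% of all probes. The 17 identifiers give 32 pairs of members, whose deposited values correlated over the 9 arrays with a median Pearson r of 0.41 and a range from -0.56 to 0.94. The median over all 19900 pairs of members was 0.00. The arrays, their scaling and their groups are shared by every pair, so the coefficients describe likeness only.

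A further 60 probes carry the identifier of a member without being members, for 44 of the identifiers. Of these, 41 were above background on all 9 arrays, 5 on some and 14 on none. Of the 41, 20 (48.8%) also had a range of group means under 0.5, and 7 were as bright as the members but had a wider range. Bright steady probes are members by the rule, so these 60 are no even sample of the other probes of the same transcripts.

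Of the 44 such probes tested, limma called 2 lower in alkaline salt plants, against control and against salt, beside 17.9% and 15.2% of all tested probes, and 0 higher. In salt against control 0 were called, beside 0.0337% of all tested probes, with 4 at an unadjusted p under 0.05, beside 5.89%. The 2 probes were chosen after their values were seen. Both passed the filter of the tested probes only through the control and salt plants, where they were high. Their p-values and fold bounds are therefore a description. A_46_P202614 was well above background in all 3 control and all 3 salt plants and in no alkaline salt plant. On the scaled values it was at least 3.34-fold lower than in control (limma adjusted p = 0.00330) and at least 7.06-fold lower than in salt (limma adjusted p = 0.000975). A_46_P001636 showed the same pattern of detection and was at least 3.31-fold lower than in control (limma adjusted p = 0.0118) and at least 2.64-fold lower than in salt (limma adjusted p = 0.0233). The call of A_46_P001636 against salt was lost without salt replicate 2 (limma adjusted p = 0.0635), salt replicate 3 (0.0773), alkaline salt replicate 2 (0.0653) or alkaline salt replicate 3 (0.0840), with no filter on dim probes (0.0638), with normexp (0.0984), and without slide 1, 2 or 3 (0.0584, 0.146 and 0.124). Its call against control was lost without slide 1 (0.0606) or slide 2 (0.145). A_46_P202614 lost its call against control with normexp (0.0989) and kept its call against salt in every setting that tested it, at limma adjusted p of up to 0.0301. Both probes were left untested by the filter asking for all 9 arrays. The bounds set the mean of the bright group against the lowest signal well above background on each dim array, or the probe's own signal where that was higher. They hold for the scaled values only. With normexp the log2 differences were smaller in size, at -0.65 against control and -1.32 against salt for A_46_P202614. For A_46_P001636 they were -0.78 and -0.59.

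The members with the same identifiers were A_46_P366105, with a range of group means of 0.15, for A_46_P202614, and A_46_P304255, with one of 0.26, for A_46_P001636. Both called probes were far dimmer, with mean deposited log2 values of 8.64 (A_46_P202614) and 8.15 (A_46_P001636). The means of A_46_P366105 and A_46_P304255 were 16.19 and 17.97. The lowest mean of any probe above background on all 9 arrays was 7.82. The rule chose these members for a small range, so no test sets them against their partners. Which part of a transcript each probe reads was not used here.

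The widest disagreement between bright probes of 1 identifier did not follow the groups. The member A_46_P327905 read 18.27, 18.31 and 18.38 in control, 18.33, 18.38 and 17.80 in salt, and 18.38, 18.28 and 18.44 in alkaline salt plants. A_46_P138549, with the same identifier, read 15.88, 15.29 and 15.77 in control, 15.86, 18.31 and 18.33 in salt, and 18.55, 15.41 and 15.60 in alkaline salt plants. The last probe of that identifier described here, A_46_P303895, read 15.40, 14.65 and 15.71 in control, 15.64, 18.28 and 17.92 in salt, and 18.44, 14.73 and 14.79 in alkaline salt plants. In both of the latter, salt replicates 2 and 3 and alkaline salt replicate 1 stood more than 2 log2 units above the other 6 plants, while the member had no such division. No treatment contrast of these 2 probes was called, with limma adjusted p of 0.618, 0.526 and 0.926 for A_46_P138549 and 0.710, 0.473 and 0.936 for A_46_P303895, in the order alkaline salt against control, alkaline salt against salt and salt against control. They were singled out after their values were seen, and the cause of the division was not tested.

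**Figure D5:**
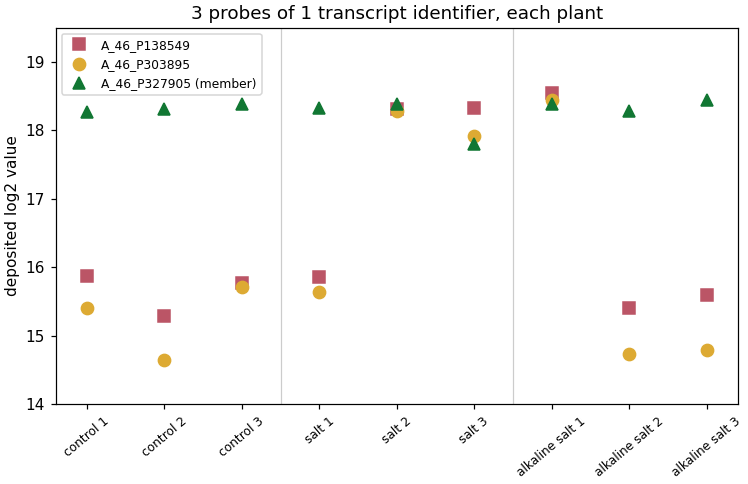
Deposited log2 values (vertical axis) of the 3 probes of 1 transcript identifier in each of the 9 plants (horizontal axis, groups divided by grey lines). The member A_46_P327905 stays between 17.80 and 18.44, while A_46_P138549 and A_46_P303895 are near or above 18 in salt replicates 2 and 3 and alkaline salt replicate 1 and at or below 15.88 in the other 6 plants.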

How the data were processed

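Linear spot intensity comes from 9 deposited scanner files, written by Agilent Feature Extraction 10.1.1.1, per the file headers, and already background-subtracted and detrended within the array. Version 10.5.1.1 is given in the submitters' processing notes. Detection flags in the same deposited files mark spots well above background. The authors also deposited a table of log2 values. How these were made is not given in the sources used here, and its match to quantile-normalised intensities is inferred from the values, as are its scale and its lack of centring.

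The rule was applied to those log2 values. Control spots (1417) were left out, and 71 spot values marked as outliers, none in a member, were set to missing. The tests used log2 processed intensity minus each array's 75th percentile over all probes, with limma 3.58.1 in R 4.3.3: group means over 9 arrays, no covariate, two-sided, Benjamini-Hochberg over the 17798 tested probes. The slide was tested by limma's moderated F-test in a fit of group plus slide. A pooled SD is over the 3 groups. The number of arrays limits the precision. Python 3.11.15, pandas 2.3.3 and matplotlib 3.10.9 made the summaries and figures.

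Members, lists and tests were chosen with earlier results of these data known. Probes were named by rank: the 5 brightest members, the 2 dimmest and the 2 next below, the 2 with the widest group means and the 2 bright ones just past the limit, the 2 smallest and 2 largest within-group SDs, the 2 smallest slide p-values and the 3 brightest left out. Probes named outside this rule (those with the smallest contrast p, those called under an alternative, those sharing an identifier, and those with single departing plants) were chosen after their values were seen. Lists of photosynthesis, ribosomal and other genes and of cell type markers could not be applied, as no probe carries a gene name. Alternatives covered scaling, normexp background (offset 50, on median spot signals), the deposited table, filters, the slide as a block, moderation, the threshold and each array or slide left out.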

Additional observations from a re-analysis of the deposited data

How the results depend on the processing

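No member was called in salt against control or for the slide under any of the alternatives with an adjusted p. In alkaline salt against control 0 members were called, 3 at an unadjusted p under 0.05 and 0 to 1 with single arrays left out, the 1 without alkaline salt replicate 1. In that fit 2504 of the 17798 tested probes were called. In alkaline salt against salt 0 members were called, 1 with normexp (beside 2818 of the 17798 tested probes) and 8 unadjusted, and for the slide 17 unadjusted. Beside these unadjusted counts of 3, 8 and 17 stand 32%, 30.7% and 4.88% of the tested probes. Of the probes sharing a member's identifier, 2 were called in alkaline salt against control and 6 unadjusted. Numbers in brackets here are the calls over all tested probes, 17798 unless stated. The count was 3 with robust moderation along an intensity trend (3412), 1 without slide 1 (579) and 1 without slide 2 (1123). With the filter asking for all 9 arrays it was 0 (2785 of 14476). With single arrays left out it was 2 to 5, reaching 5 without alkaline salt replicate 1 (2504). In alkaline salt against salt the 2 became 4 with quantile normalisation (2987), 1 with no filter (1037 of 43603), 0 with the filter asking for all 9 arrays (2287 of 14476) and 6 unadjusted. The count was 3 with scaling over probes above background on all arrays (2748), normexp (2818), the deposited table (2978) or without slide 1 (504). Without slide 2 (1309) or slide 3 (667) it was 1. With single arrays left out it was 1 to 5. It was 1 without salt replicate 2 (1809) or 3 (1434) or alkaline salt replicate 2 (2047) or 3 (1193), and 5 without alkaline salt replicate 1 (1836). In salt against control 4 came unadjusted. Beside these unadjusted counts of 6, 6 and 4 stand 32%, 30.7% and 5.89% of the tested probes. The filter on all 9 arrays removes both called probes by construction. Leaving out slides and the block on the deposited table were added after seeing the data.

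The median within-group SD of the members, 0.297 as scaled, was 0.510 with median scaling, 0.158 with quantile normalisation and 0.156 in the deposited table, and 0.274 to 0.317 with single arrays left out. The spread of the median member over arrays, 0.568, was 1.16 with median scaling, 0.109 with quantile normalisation, 0.103 in the deposited table and 1.57 unscaled (settings added after seeing the data), and 0.514 to 0.568 with single arrays left out. The rule shared 114 of its 200 members with a limit of 0.25, 184 to 197 with single arrays left out, and 178 to 200 under the other settings. The range of group means of 14 named members was followed through 196 values under alternatives. It moved by less than 1 SD in 185 and was at or over 0.5 in 17, from 5 members.

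The replicate numbers were not taken to pair the plants: deviations of same-numbered arrays correlated at -0.145 to 0.290 over tested probes, 1 of 9 pairs was over 0.1, and in 3 of 9 arrays the best match had the same number. With the replicate block, which is the slide, 0 members were called in each of the 3 contrasts, beside 2901, 2356 and 0 tested probes. The slide as a random block gave a correlation of 0.0371.

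With 3 plants per group, 41 members had an interval past 2-fold in at least 1 contrast. Spot brightness depends on the probe, and probes carry no gene name, so no member can be tied to a protein. The deposited table's scaling aligns bright spots by construction.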
